A study of Capra hircus with 9 samples.

Results

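miR-142 and miR-223 are microRNAs of blood cells, and their levels were followed here in the submandibular gland, a large salivary gland, of healthy female Lubo goats aged 1, 12 and 24 months. The members were taken by name: every entry of the deposited table named miR-142 or miR-223 in any form, plus miR-3969-x, whose sequence overlaps that of miR-142. This gave 7 of the 2189 entries, namely miR-142-x, miR-142-y, miR-3969-x, chi-miR-223-3p, miR-223-y, chi-miR-223-5p and miR-223-x. Each age had 3 libraries, 1 per goat, from gland tissue of animals kept under 1 regime, and the labels name no genotype or agent that differed between the ages. Libraries are named below by age and by the number in their label, which is 1, 2 or 3 for the 1-month goats, 3, 4 or 5 for the 12-month goats, and 2, 3 or 5 for the 24-month goats.

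As background, a microRNA is cut from a hairpin that gives a 5p and a 3p strand, and its seed, bases 2 to 8 from the 5′ end, is the stretch that pairs with target messages. In mouse and human, miR-142 is made in nearly all blood-forming lineages, both of its strands are used, and mice without it have defects in lymphoid and myeloid cells. miR-223 is best known from mouse and human as a miRNA of the myeloid lineage, most abundant in neutrophils, where in mice it restrains their production and activation. A gland holds such cells in its vessels and tissue, beside the epithelium that makes saliva.

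The sequences show which entries can be read as separate RNAs. The prefix chi- marks goat names, and the endings -x and -y, on names from other species, are read here as the 5p and 3p strand. The deposited sequences are given 5′ to 3′ as DNA letters, with the seed in capitals. miR-3964-y is not a member and is shown because it shares a long run with miR-142-x. Despite its ending -y it is therefore read here as a form of the 5p strand.
miR-142-x: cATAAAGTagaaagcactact
miR-3969-x: cCCATAAAgtagaaagcactata
miR-3964-y: cATAAAGTagaaagcactaa
miR-142-y: tGTAGTGTttcctactttatgg
chi-miR-223-3p: tGTCAGTTtgtcaaatacccca
miR-223-y: tGTCAGTTtgtcaaataccccaat
chi-miR-223-5p: tGTGTATTtgacaagctgagttg
miR-223-x: gGTGTATTtgacaagctgagttgg

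miR-3969-x holds the first 19 bases of miR-142-x from its base 3 on, so it starts 2 bases earlier and carries a different seed, CCATAAA in place of ATAAAGT. miR-3964-y starts at the same base as miR-142-x, shares the same 19 bases and the same seed, and differs only at its 3′ end. miR-223-y is chi-miR-223-3p with 2 further bases, and miR-223-x shares 22 bases with chi-miR-223-5p and has that strand's seed. The 4 miR-223 entries are therefore a main and a variant form of each strand, and miR-142-x and miR-3969-x are forms of 1 strand. No member had its exact sequence listed under a second name, but the close forms are no separate evidence, because the way reads were split between them is not given in the sources used here.

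Of the 7 members, 6 passed the filter on low counts that left 937 of 2189 entries for testing. miR-223-x, with 13 counts over all libraries, did not. miR-223-y and chi-miR-223-5p passed through the 1-month libraries alone, so a fall of these had to follow from their passing. Library totals ran from 8288492 to 13277448 counts, so 3 counts, the limit that a count of 0 allows, stood for 0.226 to 0.362 CPM. The 1-month library 2 stood apart from the others, with 66.6% of its counts on goat-named entries against 79.7% to 83.6% elsewhere. The miR-142 entries carry no goat name and took 10.58% of the counts of that library, so this share is not separate from their level. They were not the only such entries high there. miR-181-x, also without a goat name, had 138106 CPM in that library (scaled as described below), against 32476 and 23152 CPM in 1-month libraries 1 and 3.

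miR-142 was far lower in the adult gland than at 1 month, in both strands. miR-142-x, the 5p strand, had 19026, 103086 and 31185 CPM, the count scaled to library size with edgeR's TMM factors, in 1-month libraries 1, 2 and 3. In the 12-month libraries 3, 4 and 5 it had 1207, 1157 and 1217 CPM, and in the 24-month libraries 2, 3 and 5 it had 1186, 884 and 1094 CPM. Every 1-month library lay above every later one, and library 2 held the highest value. By abundance it ranked 10, 3 and 6 among all entries of the 1-month libraries. Its ranks were 86, 91 and 85 in the 12-month libraries and 89, 101 and 92 in the 24-month ones. The fall was 5.42 on the log2 scale at 12 months against 1 month (log2 fold change −5.42, standard error 0.63, edgeR quasi-likelihood test with Benjamini-Hochberg adjusted p = 0.0011). At 24 months against 1 month the log2 fold change was −5.60 (SE 0.64, edgeR adjusted p = 0.000678). Without 1-month library 2 these values were −4.42 and −4.60 and both calls held. In bulk tissue, fewer blood cells and less of a miRNA per cell cannot be told apart.

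miR-142-y, the 3p strand, followed at a lower level. It had 1394, 8546 and 1295 CPM in 1-month libraries 1, 2 and 3. Its levels were 70.9, 90.0 and 67.2 CPM in 12-month libraries 3, 4 and 5, and 73.0, 101 and 80.5 CPM in 24-month libraries 2, 3 and 5. The 1-month values again lay above all later ones, and those of the 2 later ages overlapped. The log2 fold change was −5.62 (SE 0.77, edgeR adjusted p = 0.00151) at 12 months against 1 month and −5.46 (SE 0.77, edgeR adjusted p = 0.00146) at 24 months against 1 month. Without 1-month library 2 it was −4.17 and −4.01, still past the threshold.

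Because the ratio of the strands is taken within a library, it needs no scaling between libraries. There were 13.6, 12.1 and 24.1 counts of miR-142-x for each count of miR-142-y in 1-month libraries 1, 2 and 3. The ratios were 17.0, 12.9 and 18.1 at 12 months and 16.3, 8.75 and 13.6 at 24 months. The 3 ages overlapped. On the log2 scale the ratio averaged 3.98 ± 0.26 at 12 months and 3.98 ± 0.53 at 1 month (SD, n = 3 each, exact two-sided permutation p = 1). It averaged 3.64 ± 0.46 at 24 months, where the exact p was 0.5 against 1 month and 0.4 against 12 months (adjusted p = 0.857 and 0.8 over the 12 exact tests of ratios and shares). With 3 libraries against 3, the smallest p is 0.1, so these tests cannot pass the threshold.

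miR-3969-x, the form of the 5p strand with the shifted seed, fell with miR-142-x. It had 220, 1602 and 495 counts (18.0, 127 and 35.0 CPM) in 1-month libraries 1, 2 and 3. At 12 months 16, 13 and 10 counts (2.06, 1.39 and 0.898 CPM) were found in libraries 3, 4 and 5, and at 24 months 28, 12 and 13 counts (2.70, 1.36 and 1.5 CPM) in libraries 2, 3 and 5. No later library reached the lowest 1-month value. The log2 fold change was −5.38 (SE 0.80, edgeR adjusted p = 0.00196) at 12 months against 1 month and −5.00 (SE 0.78, edgeR adjusted p = 0.0022) at 24 months against 1 month, with −4.23 and −3.85 without 1-month library 2. For every 1000 counts of miR-142-x there were 1.18 counts of miR-3969-x in the summed 1-month libraries (exact binomial 95% interval 1.13 to 1.23). The 12-month sum gave 1.15 (0.821 to 1.58) and the 24-month sum 1.79 (1.34 to 2.34). These intervals cover counting error only. Single libraries spanned 0.947 to 1.24 at 1 month and 0.738 to 1.71 at 12 months. Those of 24 months, 1.37 to 2.27, lay above the 1-month ones and overlapped the 12-month ones.

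The shorter form miR-3964-y, chosen for its sequence after the values were seen, also fell. It had 114, 505 and 520 counts in 1-month libraries 1, 2 and 3, 7, 21 and 32 counts in 12-month libraries 3, 4 and 5, and 32, 14 and 12 counts in 24-month libraries 2, 3 and 5. The log2 fold change was −3.82 at 12 months against 1 month (SE 0.68, edgeR adjusted p = 0.00473) and also −3.82 at 24 months against 1 month (edgeR adjusted p = 0.00403). For every 1000 counts of miR-142-x there were 0.390 to 1.18 counts of it in the 1-month libraries. The 12-month libraries had 0.747 to 2.36 and the 24-month libraries 1.26 to 2.60. The 24-month libraries lay above the 1-month ones and the 12-month libraries overlapped both. Whether the forms differ in their fall was not tested.

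**Figure D1:**
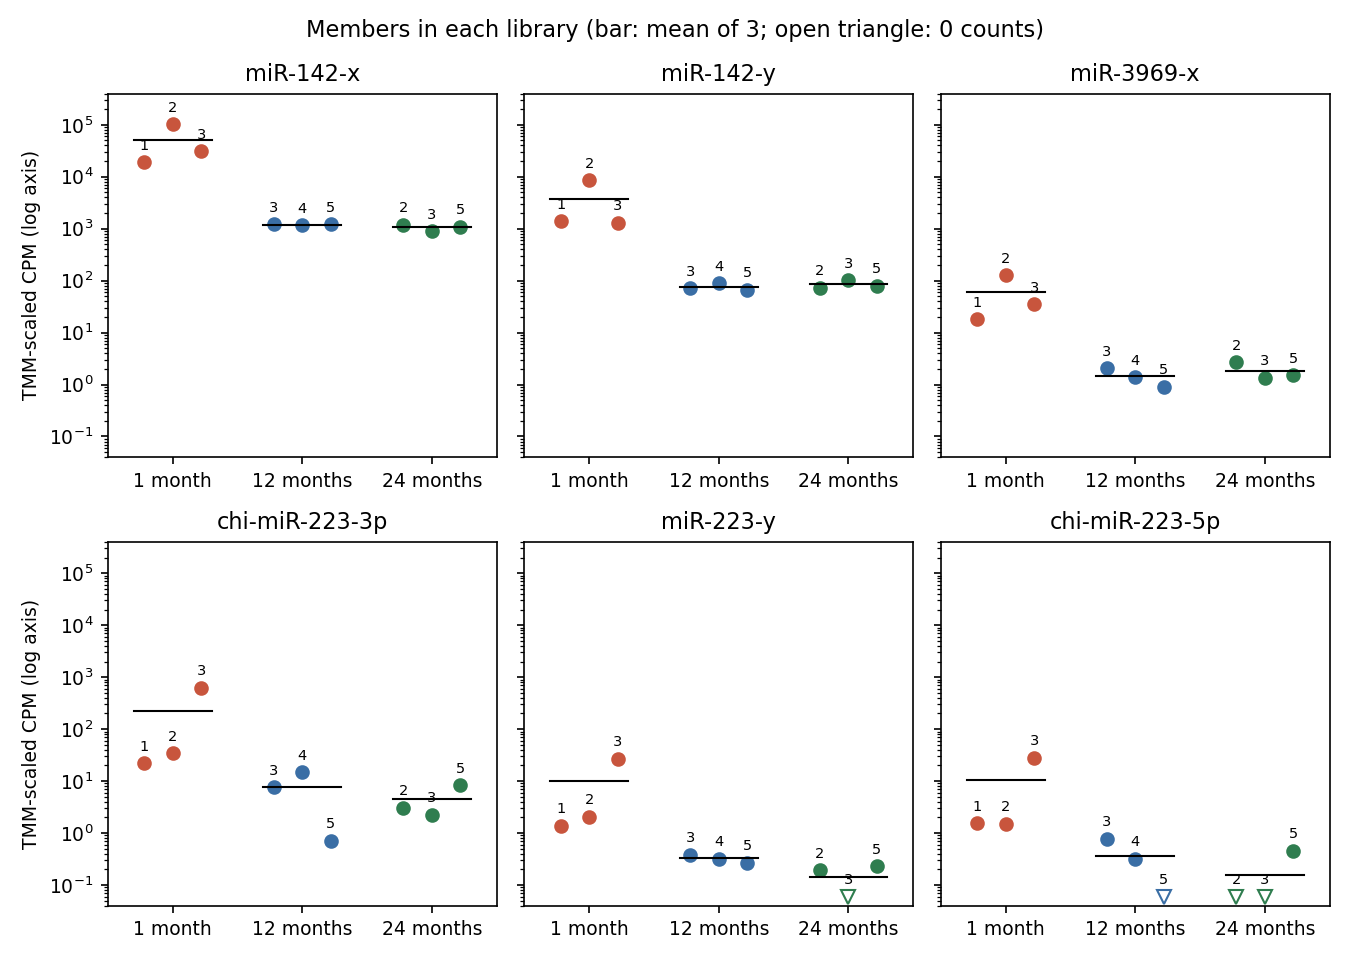
Level of the 6 tested members in each library, as TMM-scaled CPM on a log axis, by age. Points are single libraries with their numbers, bars are means of 3 libraries and open triangles mark libraries with 0 counts. The miR-142 entries peak in 1-month library 2, at 103086 CPM of miR-142-x, and the miR-223 entries in 1-month library 3, at 625 CPM of chi-miR-223-3p.

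miR-223 was also lower in the adult gland, but most of its 1-month signal came from a single goat. chi-miR-223-3p, the main strand, had 22.0, 34.1 and 625 CPM in 1-month libraries 1, 2 and 3. In 12-month libraries 3, 4 and 5 it had 7.60, 14.8 and 0.718 CPM, from 59, 139 and 8 counts. In 24-month libraries 2, 3 and 5 it had 3.08, 2.27 and 8.40 CPM, from 32, 20 and 73 counts. The lowest 1-month library still lay above the highest later one. The log2 fold change was −4.88 at 12 months against 1 month (SE 1.43, edgeR adjusted p = 0.0369) and −5.63 at 24 months against 1 month (SE 1.48, edgeR adjusted p = 0.0219).

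Without 1-month library 3 the log2 fold change of chi-miR-223-3p was −1.85 (edgeR adjusted p = 0.185) at 12 months and −2.58 (edgeR adjusted p = 0.0784) at 24 months, so neither call held. The call at 12 months was also lost without 12-month library 3, 4 or 5 or 24-month library 3 (edgeR adjusted p = 0.0504 to 0.0842, log2 fold changes −4.79 to −5.82). The call at 24 months was lost without 24-month library 2 or 3 (edgeR adjusted p = 0.0893 and 0.103), and without 24-month library 5 the value was −6.59. With no filter on low counts neither call held (adjusted p = 0.175 and 0.125), and with only the libraries of both ages the call at 12 months was lost (adjusted p = 0.0565). In contrast, miR-142-x, miR-142-y and miR-3969-x each passed whichever single library was left out.

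The longer form and the other strand of miR-223 were highest in 1-month library 3 too. miR-223-y had 17, 26 and 379 counts in 1-month libraries 1, 2 and 3, 3 counts in each 12-month library, and 2, 0 and 2 counts in 24-month libraries 2, 3 and 5. chi-miR-223-5p had 19, 19 and 396 counts in 1-month libraries 1, 2 and 3, 6, 3 and 0 counts in 12-month libraries 3, 4 and 5, and 0, 0 and 4 counts in 24-month libraries 2, 3 and 5. miR-223-x had 2 and 9 counts in 1-month libraries 2 and 3, 2 counts in 12-month library 4, and 0 in the other 6. At most a few reads per library thus stood behind the adult values of these forms.

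Since miR-223-y and chi-miR-223-5p passed the filter through the 1-month libraries alone, their falls had to follow, and the values below are a description only. For 12 months against 1 month, miR-223-y had a log2 fold change of −4.92 (SE 1.21, edgeR adjusted p = 0.018) and chi-miR-223-5p of −4.87 (SE 1.53, edgeR adjusted p = 0.0466). For 24 months against 1 month both stood at −6.03 (SE 1.32 and 1.67, edgeR adjusted p = 0.00974 and 0.0259). Without 1-month library 3 the values at 12 months were −2.36 (adjusted p = 0.129) and −2.09 (adjusted p = 0.314), and at 24 months −3.47 (adjusted p = 0.0479) and −3.24 (adjusted p = 0.146). At 12 months miR-223-y was also lost without 12-month library 4 or 5 (adjusted p = 0.0666 and 0.05001), and chi-miR-223-5p without 12-month library 3, 4 or 5 (0.0667, 0.123 and 0.0907), with −6.38 without 12-month library 3. At 24 months chi-miR-223-5p was lost without 24-month library 2 or 3 (0.0874 and 0.0923).

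For every 1000 counts of chi-miR-223-3p there were 44.2 of miR-223-y in the summed 1-month libraries (exact binomial 95% interval 40.0 to 48.7). The 12-month sum gave 43.7 (19.7 to 84.6) and the 24-month sum 32.0 (8.59 to 84.0), and the intervals of the ages overlapped. Such intervals cover counting error only and not the spread between goats, so they do not compare the ages. Of the 9548 summed 1-month counts of chi-miR-223-3p, 8850 came from library 3. chi-miR-223-5p gave 45.5 (41.2 to 50.0) in the 1-month sum and the same counts as miR-223-y, 9 and 4, in the 12-month and 24-month sums. In the 1-month libraries 1, 2 and 3 taken singly, chi-miR-223-5p stood at 70.6, 44.3 and 44.7 and miR-223-y at 63.2, 60.6 and 42.8. In 12-month library 5 there were 3 counts of miR-223-y and 8 of chi-miR-223-3p, the highest proportion of any library. The strand of miR-223 that dominates was thus the 3p strand at every age, where for miR-142 it was the 5p strand.

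**Figure D2:**
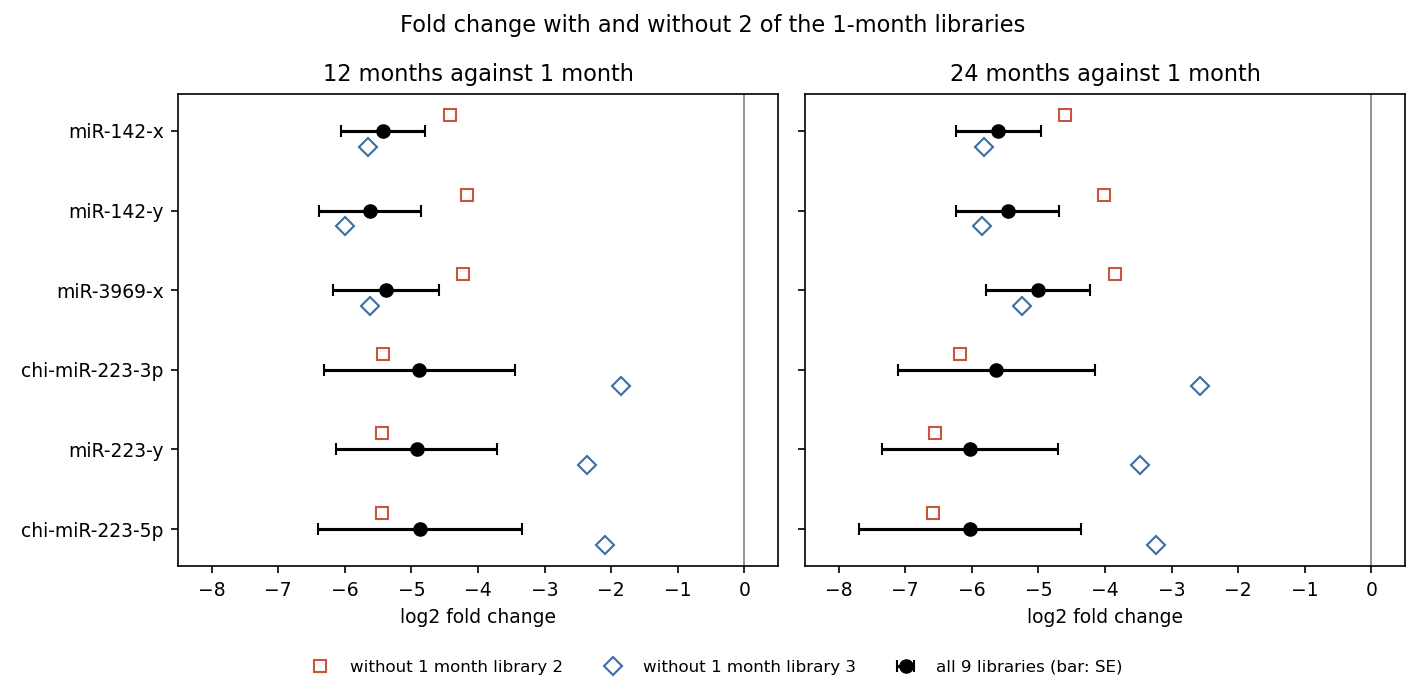
Log2 fold change of the 6 tested members at 12 months against 1 month (left) and at 24 months against 1 month (right). Filled points are the fit over all 9 libraries with standard errors, open squares are without 1-month library 2 and open diamonds without 1-month library 3. Leaving out library 3 moves chi-miR-223-3p to −1.85 and −2.58, and leaving out library 2 moves miR-142-x to −4.42 and −4.60. miR-223-y and chi-miR-223-5p passed the filter through the 1-month libraries alone, so their falls had to follow.

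Set against the whole table, 13.2% of the 937 tested entries were called lower at 12 months against 1 month and 5.98% higher. The 4 members that did not pass the filter through 1 month alone, miR-142-x, miR-142-y, miR-3969-x and chi-miR-223-3p, were all called lower. At 24 months against 1 month 17.5% of entries were called lower and 8.75% higher, and the same 4 members were called lower. The groups of these 4 did not overlap in either comparison, which held with the lower values at the later age for 22.2% of all entries at 12 months and 25.8% at 24 months. Counted from the deepest fall, miR-142-x ranked 14 and 15 of 937 at 12 and 24 months, miR-142-y 12 and 18, miR-3969-x 15 and 26, and chi-miR-223-3p 24 and 14. A difference between the 3 ages was called in 20.5% of entries, and the edgeR adjusted p was 0.000287 for miR-142-x, 0.000443 for miR-142-y, 0.000789 for miR-3969-x and 0.017 for chi-miR-223-3p. The comparisons with 1 month share the same 1-month libraries, so they are no separate evidence.

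Between 12 and 24 months no member was called. edgeR called 0% of the 937 entries in this comparison in either direction, DESeq2 and limma voom also called 0, and 40 entries, none of them a member, had an unadjusted edgeR p under 0.05. The log2 fold changes of 24 months against 12 months were −0.18 (SE 0.52) for miR-142-x, 0.16 (0.63) for miR-142-y and 0.37 (0.72) for miR-3969-x. For miR-223 they were −0.75 (1.26) for chi-miR-223-3p, −1.11 (1.39) for miR-223-y and −1.16 (1.76) for chi-miR-223-5p. Every one of these 6 edgeR adjusted p-values was 0.998. Each of these 6 differences was smaller than its standard error. The 12-month and 24-month values did not overlap for miR-223-y, which rests on 0 to 3 counts per library, and overlapped for the other 5. Over all entries 3.74% had all 24-month values below and 6.08% above the 12-month ones.

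The 1-month goat with the most miR-142 was not the one with the most miR-223. At 1 month library 2 was highest in all 3 entries of miR-142 and library 3 was highest in all 4 of miR-223. Summed over its entries, miR-142 took 2.41%, 10.6% and 3.96% of counts in 1-month libraries 1, 2 and 3 (Wilson 95% interval for library 2 10.56 to 10.60%). The sum of miR-223 took 0.00295%, 0.00359% and 0.0828% in the same libraries (0.08117 to 0.08448% for library 3). The number of miR-142 counts for each count of miR-223 was thus 818, 2951 and 47.8, a range of 61.7-fold at a single age.

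The same ratio spanned 79.6 to 1301 in the 12-month libraries, lowest in library 4 and highest in library 5, a range of 16.3-fold. In 24-month libraries 2, 3 and 5 it was 385, 434 and 129. On the log2 scale it averaged 7.95 ± 2.12 at 12 months and 8.93 ± 3.04 at 1 month (SD, n = 3 each, exact two-sided permutation p = 0.8). It averaged 8.12 ± 0.96 at 24 months (exact p = 0.8 against 1 month and 1 against 12 months, adjusted p = 0.96 and 1). With 3 libraries against 3 these exact permutation tests cannot go below p = 0.1, so they do not show whether miR-142 and miR-223 fell by different amounts. Against 1 month the log2 ratio differed by −0.98 at 12 months and −0.81 at 24 months, and without 1-month library 2 by 0.32 and 0.49.

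**Figure D3:**
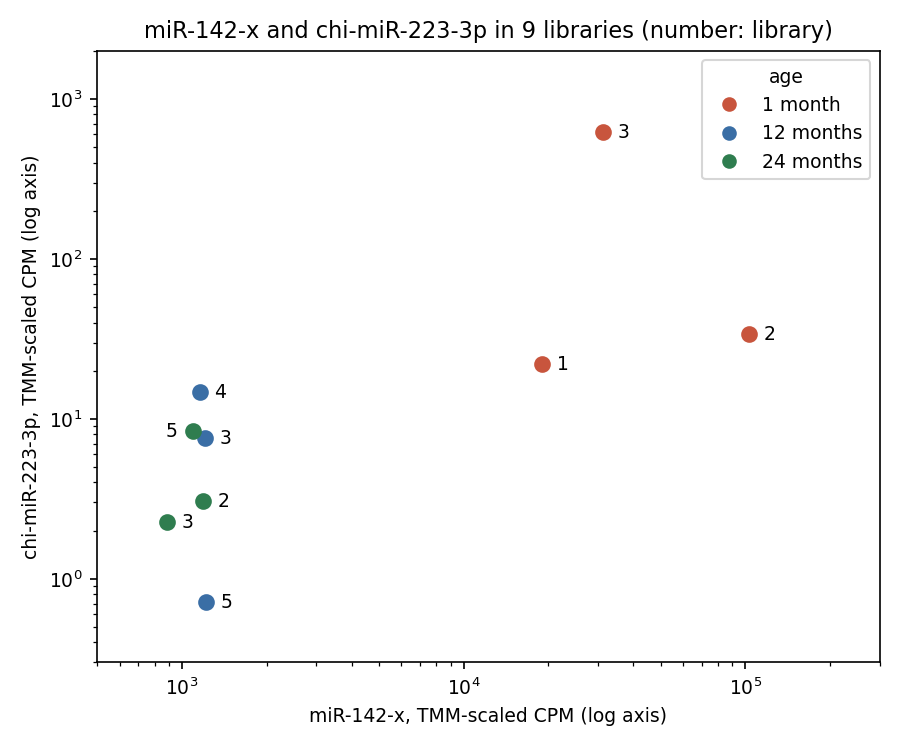
miR-142-x against chi-miR-223-3p in the 9 libraries, as TMM-scaled CPM on log axes, colored by age and labelled with the library number. The 1-month libraries lie to the right, library 3 lies highest at 625 CPM of chi-miR-223-3p, and the 12-month libraries share a level of 1157 to 1217 CPM of miR-142-x while chi-miR-223-3p runs from 0.718 to 14.8 CPM.

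In the adult gland miR-142-x was the steadier of the pair. Its highest 12-month library exceeded the lowest by 1.05-fold, against 20.6-fold for chi-miR-223-3p and a median of 1.47-fold over the 535 tested entries with a mean of at least 10 CPM at 1 age or more. At 24 months the same ratios were 1.34-fold and 3.70-fold, with a median of 1.62-fold. At 1 month they were 5.42-fold and 28.4-fold, with a median of 2.76-fold. chi-miR-223-3p was the more variable at each age, and ranked 7, 12 and 42 of 535 from the widest at 1, 12 and 24 months. It met the limit of 10 CPM at 1 month only, with means of 7.71 and 4.59 CPM at 12 and 24 months. Its adult values rest on 8 to 139 counts per library, where counting error is larger than for miR-142-x.

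Summed shares give the same picture without scaling. miR-142 took 0.123 ± 0.00704% of counts at 12 months and 5.65 ± 4.34% at 1 month (SD, n = 3 each, exact two-sided permutation p = 0.1, the smallest possible). At 24 months it took 0.106 ± 0.014% (exact p = 0.1 against 1 month and 0.3 against 12 months). The difference in the miR-142 share from 1 month was −5.53 percentage points at 12 months and −5.54 at 24 months, and without 1-month library 2 it was −3.06 and −3.08. miR-223 took 0.000854 ± 0.00078% at 12 months and 0.0298 ± 0.0459% at 1 month (exact p = 0.1), and 0.000446 ± 0.000317% at 24 months (exact p = 0.1 against 1 month and 0.6 against 12 months). The adjusted p was 0.3 for each comparison with 1 month, and 0.72 for miR-142 and 0.9 for miR-223 between 24 and 12 months. Without 1-month library 3 the difference in the miR-223 share at 12 months against 1 month was −0.00241 percentage points, against −0.0289 with it.

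Markers of other cells moved with age as well, and their part in the change of miR-142 and miR-223 was not tested. The lymphocyte list (miR-150, miR-155, miR-342, miR-146 and miR-181) had 10 of 17 tested entries lower and 0 higher at 12 months against 1 month, where 13.2% of all entries were lower and 5.98% higher. Its median log2 fold change was −1.87, against −0.02 over all entries. It had 12 of 17 lower and 0 higher at 24 months against 1 month, where 17.5% of all entries were lower and 8.75% higher (median −2.06 against −0.06). Without 1-month library 2, 9 of 17 were lower and 0 higher in each comparison (medians −1.41 and −1.66), where 13.9% and 14.9% of all entries were lower. Without 24-month library 3, 7 of 18 were lower at 24 months, where 8.53% of all entries were lower. It took 5.51%, 16.2% and 4.79% of counts in 1-month libraries 1, 2 and 3, 1.04% to 1.12% at 12 months and 0.846% to 0.967% at 24 months. Its highest library was thus the one with the most miR-142, not the one with the most miR-223. miR-181-x, its most abundant entry, had 32476, 138106 and 23152 CPM in 1-month libraries 1, 2 and 3.

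The red cell list (miR-144, miR-451 and miR-486), whose miRNAs are carried by erythrocytes, had 0 of 7 entries called at 12 months and 2 lower at 24 months against 1 month, where 17.5% of all entries were lower. Those 2 became 0 without 1-month library 1 or any one 24-month library, and 1 without 1-month library 3. It took 0.403%, 0.201% and 0.296% of counts in 1-month libraries 1, 2 and 3, so its order differed from those of miR-142 and miR-223. In 12-month libraries 3, 4 and 5 it took 0.218%, 0.360% and 0.0735%, which is the order of chi-miR-223-3p in these libraries. That order was not particular to the red cell list. The epithelial list (10.6%, 11.9% and 10.3%) and the muscle list (0.0269%, 0.247% and 0.023%), both described below, shared it. In 24-month libraries 2, 3 and 5 the red cell list took 0.111%, 0.116% and 0.101%, the reverse of the order of chi-miR-223-3p there.

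The epithelial list (miR-141, miR-200, miR-429, miR-203, miR-205, miR-183, miR-96 and miR-182) had 0 of 22 lower and 5 higher at 12 months against 1 month, and 0 lower and 9 higher at 24 months, where 5.98% and 8.75% of all entries were higher. Without 1-month library 2, 14 and 15 were higher, where 8.69% and 11.5% of all entries were. With other single libraries left out, the 12-month count was between 2 (without 12-month library 5) and 15 (without 1-month library 1). Over all entries 1.41% and 6.13% were higher in these settings. The 24-month count was between 3 (without 24-month library 3) and 17 (without 1-month library 1), where 2.98% and 8.78% of all entries were higher. It took 5.82%, 0.875% and 3.97% in 1-month libraries 1, 2 and 3, 10.3% to 11.9% at 12 months and 10.7% to 11.8% at 24 months. The gland list (miR-148, miR-375, miR-7, miR-216 and miR-217) had 1 of 11 lower and 3 higher at 12 months, and 0 lower and 4 higher at 24 months. Over all entries 13.2% and 17.5% were lower at these ages and 5.98% and 8.75% higher. Without 1-month library 2 it had 2 lower and 5 higher at 12 months and 0 lower and 5 higher at 24 months. In that setting 13.9% of all entries were lower and 8.69% higher at 12 months, and 14.9% and 11.5% at 24 months. At 12 months the calls were 1 lower and 1 higher, 0 and 1, and 1 and 0 without 12-month library 3, 4 or 5. Over all entries 11%, 6.2% and 11.6% were lower in these settings and 1.98%, 2.1% and 1.41% higher. Its share was 8.55%, 1.41% and 6.50% in 1-month libraries 1, 2 and 3, between 14.2% and 16.8% in 12-month libraries and between 16.9% and 17.9% in 24-month libraries. Counts of the epithelial and gland lists were thus found in every library, which does not show how much gland epithelium each held. Both lists were lowest in 1-month library 2, which had the most miR-142. Among the 1-month libraries, library 2 was also lowest in the red cell, endothelial, mesenchymal and muscle lists (0.201%, 0.441%, 1.66% and 0.0155%). The low share was thus not particular to epithelial and gland markers, and only the lymphocyte list was highest there. The endothelial (miR-126), mesenchymal (miR-143, miR-145, miR-199 and miR-214) and muscle (miR-1, miR-133, miR-206, miR-208 and miR-499) lists had 0 of 4, 1 of 19 and 2 of 10 entries higher and none lower at 12 months against 1 month. At 24 months against 1 month they had 1, 1 and 2 higher and none lower. Over all entries 5.98% were higher at 12 months and 8.75% at 24 months. Without 1-month library 2 the mesenchymal list had 5 of 19 lower and 3 higher at 12 months, and 8 lower and 4 higher at 24 months. The shares over all entries were those given above for the gland list without this library. The endothelial call at 24 months was lost whichever library was left out, and the muscle calls changed with most single libraries left out, so no direction is given for these 3 lists. In the 1-month libraries the endothelial list took 0.441% to 1.45%, the mesenchymal list 1.66% to 13.6% and the muscle list 0.0155% to 0.0611% of counts. Their 12-month ranges were 0.781% to 0.939%, 6.91% to 9.04% and 0.023% to 0.247%, and their 24-month ranges 0.693% to 0.748%, 6.51% to 6.82% and 0.0226% to 0.0436%.

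**Figure D4:**
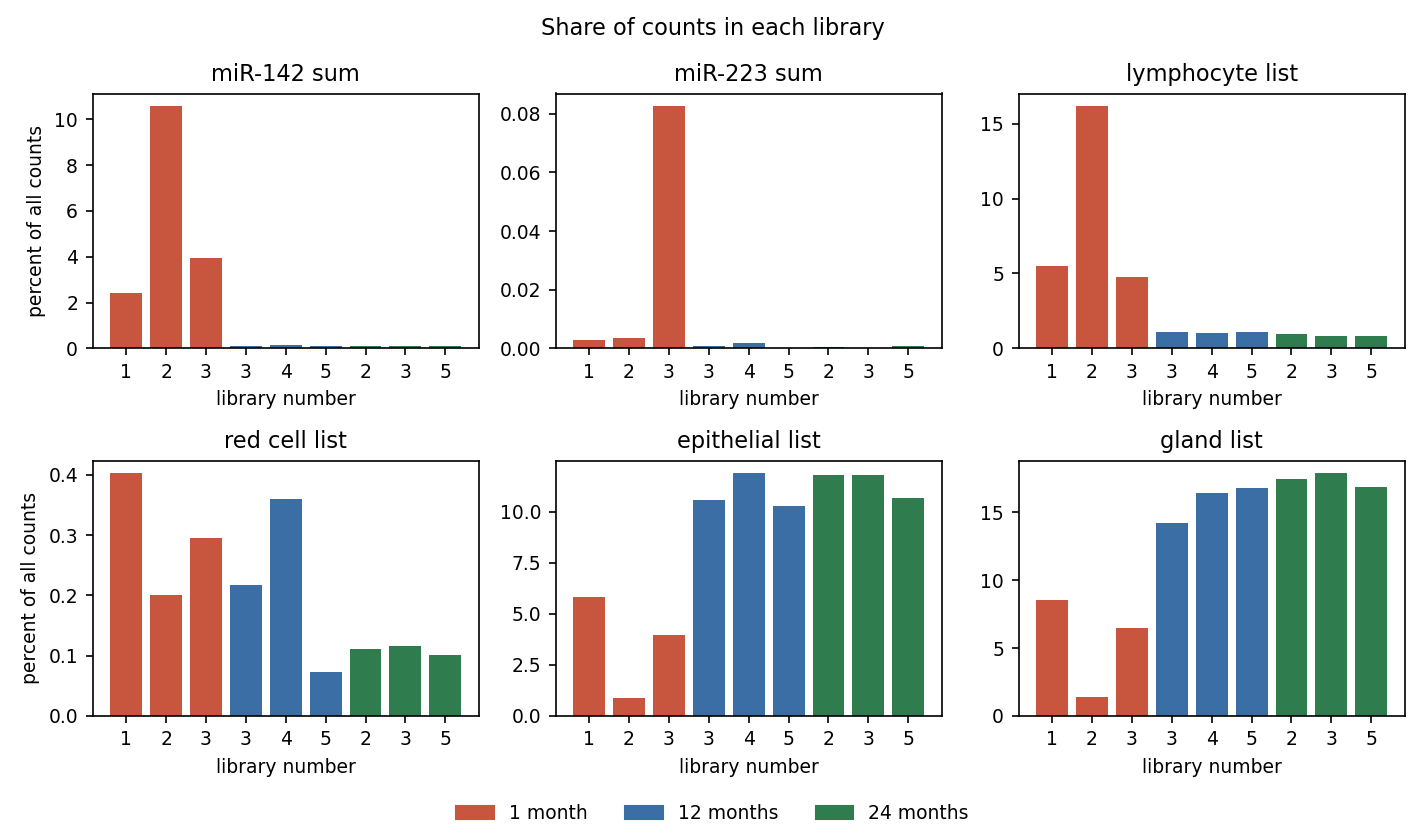
Percent of all counts in each library for the summed miR-142 and miR-223 entries and for 4 marker lists, colored by age, each panel with its own axis from 0. miR-142 and the lymphocyte list are highest in 1-month library 2 (10.6% and 16.2%), miR-223 is highest in 1-month library 3 (0.0828%), and the epithelial and gland lists are lowest in 1-month library 2 (0.875% and 1.41%). Among the 1-month libraries the red cell list is also lowest in library 2 (0.201%).

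Among 497 other entries with a family name and a mean of at least 10 CPM at 1 age or more, the 5 whose log2 levels over the 9 libraries were most like those of miR-142-x were miR-3548-y, miR-128-y, chi-miR-708-5p, chi-miR-155-5p and miR-296-x. Pearson's r ran from 0.980 to 0.986 and Spearman's rho from 0.800 to 0.883. Like miR-142-x they were highest in 1-month library 2, where chi-miR-155-5p, a miRNA of activated lymphocytes and macrophages, had 1394 CPM against 432 and 584 CPM in libraries 1 and 3. miR-128-y had 6202 CPM there, against 824 and 371 CPM. The 1-month libraries lie far from the others, so r here is mainly set by the step between 1 month and the later ages, and none of the 5 was among the 5 highest by Spearman's rho.

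For chi-miR-223-3p the 5 most alike were miR-147-y, chi-miR-874-3p, chi-miR-1388-3p, chi-miR-21-5p and chi-miR-1388-5p, with r from 0.779 to 0.941 and rho from 0.667 to 0.917. miR-147-y was the closest (r = 0.941, rho = 0.917) and the only one of the 5 kept by Spearman's rho. It had 7.70, 9.79 and 33.2 CPM in 1-month libraries 1, 2 and 3, and 3.57 to 5.64 CPM in the later libraries, with a log2 fold change of −1.72 at 12 months against 1 month that did not pass (edgeR adjusted p = 0.0551). chi-miR-21-5p, an abundant miRNA of many cell types, had 9485, 12039 and 15368 CPM in 1-month libraries 1, 2 and 3, so library 3 was again highest but by far less. No entry was in both sets of 5.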

How the data were processed

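RNA from 9 submandibular glands was extracted with TRIzol and made into miRNA libraries by Illumina protocols, per the labels' protocols. The authors deposited unscaled read counts for 2189 mature miRNA entries with their sequences, per the file headers. FastQC and Bowtie are named without role or version, per the submitters' processing notes, and no source used here gives the genome build or miRNA release.

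Entries were filtered with edgeR 4.0.16 in R 4.3.3 (minimum count 10, minimum total 15), which left 937. All 9 libraries were fitted together with age as a factor (TMM scaling, quasi-likelihood F test with robust dispersion, residual degrees of freedom 6), with Benjamini-Hochberg adjustment over the 937 entries and a threshold of 0.05. Standard errors are the log2 fold change over the square root of F. Within-library ratios and shares were compared by exact two-sided permutation tests. Levels are TMM-scaled CPM. In 5 simulated sets of 937 entries for 12 months against 1 month, 53.9% of 4-fold and 91.5% of 16-fold changes were recovered, with 2.66% of calls false. The simulated counts were drawn independently, with the same dispersion of an entry at every age. In the data the spread differed by age, with a log2 SD of 1.25 at 1 month and 0.04 at 12 months for miR-142-x. These rates therefore need not hold for the calls given here.

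All members and the entries most like miR-142-x and chi-miR-223-3p (5 each, by Pearson's r) are named, with the leading entries of the lists. The members and lists were chosen with earlier results of these data known. Alternatives were other scalings (DESeq2-type size factors, library size, upper quartile), no filter, DESeq2 1.42.0, limma voom 3.58.1, only the libraries compared, a block for the library number, summed forms and leaving out each library.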

Additional observations from a re-analysis of the deposited data

How the results depend on the processing

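For miR-142-x, miR-142-y, miR-3969-x and chi-miR-223-3p, the falls against 1 month kept their sign in 68 of 68 values from other settings and 72 of 72 that left out 1 library, and 61 and 64 of these kept their call. The 68 leave out miR-142-y with DESeq2, which gave it no p-value, and miR-3969-x where the forms were summed. All 4 were called with every library, and 3 to 4 without 1. miR-223-y and chi-miR-223-5p, which passed the filter through 1 month alone, are not counted there. With them the called members numbered 6 at 12 months against 1 month, and 3 to 6 without 1 library. The library numbers are shared between ages, but same-numbered libraries did not deviate together (correlations −0.20 to 0.15), so the numbers are used here only as names. A check on 3 libraries per age cannot exclude a pairing. With the number as a replicate block, which leaves few degrees of freedom, 1 member was called at 12 months (miR-142-x), and the block gave miR-142-y −5.31, miR-3969-x −4.78, chi-miR-223-3p −6.48, miR-223-y −5.57 and chi-miR-223-5p −6.14, not called. Under the block at 24 against 1 month chi-miR-223-3p at −4.71 and chi-miR-223-5p at −6.50 were not called, and at 24 against 12 months miR-3969-x turned to −0.15 and chi-miR-223-3p to 1.77. Called falls were lost for chi-miR-223-3p with no filter (−5.11 at 12 and −5.89 at 24 months) and with only the libraries compared (−5.30 at 12 months). They were lost for miR-223-y with limma voom (−3.58 and −4.81), and for chi-miR-223-5p with the upper quartile (−4.79), no filter (−5.08 and −6.28), limma voom (−4.27 and −5.23) and only the libraries compared (−5.25). DESeq2 gave no p-value for miR-142-y and chi-miR-223-5p and called the other 4 in both comparisons. Leaving out 1 library gave chi-miR-223-3p −5.82 to −1.85 at 12 and −6.59 to −2.58 at 24 months, miR-223-y −5.47 to −2.36 at 12 months, and chi-miR-223-5p −6.38 to −2.09 and −10.01 to −3.24, where the lowest is a fit against 24-month libraries all at 0 and no bound. For 24 against 12 months, where nothing was called, signs turned for miR-142-x (−0.19 to 0.15, and 0.01 with its forms summed), chi-miR-223-3p (−1.27 to 0.17) and chi-miR-223-5p (−4.73 to 0.15). The log2 ratio of miR-142 to miR-223 ran from −2.65 to 0.32, −2.48 to 0.49 and −0.65 to 1.37 for 12 against 1, 24 against 1 and 24 against 12 months, with −0.04 in the last for miR-142-x over chi-miR-223-3p alone, and the strand ratio of miR-142 from −0.20 to 0.30 for 12 against 1 month. Ranked by Spearman, 0 of the 5 entries most like miR-142-x and 1 of the 5 most like chi-miR-223-3p stayed. Scaling by library size alone put the median log2 fold change of all entries at −0.20 (TMM −0.02) for 12 months and −0.36 (TMM −0.06) for 24 months against 1 month. Calls over all entries numbered 180 at 12 and 246 at 24 months against 1 month. They became 4 and 71 with the block, 285 at 12 months with DESeq2, 83 without 12-month library 4, and 158, 116 and 161 at 24 months without 24-month library 2, 3 or 5. Between 24 and 12 months they numbered 0, and 5 with no filter and 2 without 12-month library 5. The causes of these shifts were not tested. Counts of 0 to 6 per library limit the minor forms of miR-223 in adults. Leaving out libraries for the marker lists was chosen after seeing the data.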

Other observations

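The high miR-223 of 1-month library 3 led all entries of that library in its distance from the other 1-month libraries, a comparison chosen after the values were seen. Over the 535 tested entries with a mean of at least 10 CPM at 1 age or more, chi-miR-223-3p stood 18.3-fold above the higher of the other 1-month libraries in library 3, chi-miR-223-5p 18.0-fold and miR-223-y 12.9-fold, and these ranked 1, 2 and 3. In 1-month libraries 1, 2 and 3 miR-223-y had 1.39, 2.07 and 26.8 CPM and chi-miR-223-5p 1.56, 1.51 and 28 CPM. Both met the limit of 10 CPM only through library 3, so their high ranks there had to follow. As forms of miR-223 they are no separate evidence. The median over all entries was 0.694-fold, 7 entries exceeded 2-fold and 4 exceeded 5-fold. The next were miR-122-x, of a family known from liver, at 5.10-fold and miR-147-y at 3.39-fold. In library 2, by contrast, 140 of 535 entries exceeded 2-fold and 18 exceeded 5-fold, and miR-142-x at 3.31-fold ranked 56 and miR-142-y at 6.13-fold ranked 12.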
